A study of Mus musculus with 15 samples.

Results

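Mutually exclusive exons are neighbouring exons of which a mature transcript keeps one or the other, so that 1 stretch of the product exists in alternative versions. In striated muscle they are textbook features of the tropomyosins, fast troponin T, the myocyte enhancer factor 2 genes and pyruvate kinase M. In myotonic dystrophy, RNA with an expanded CUG repeat binds the muscleblind-like (MBNL) splicing regulators, and several muscle transcripts are known to return to forms seen before birth. The pairs described here are the rows of a deposited splicing table whose event type is mutually exclusive exons and which had a value in every library. There were 1000 such pairs out of 1259 in the table, and 31267 events of all types had a value in every library. The other 259 pairs lacked a value in at least 1 library and were not analysed here.

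RNA came from skeletal muscle of mice that all carried TREDT960I-HOM, a transgene whose transcript holds the repeat. The 6 induced libraries came from TREDT960I-HOM; MDAFrtTA mice given doxycycline (dox) from postnatal day 1, the MDAFrtTA product being the dox-dependent switch. The controls were 6 no-dox libraries of that same genotype without dox and 3 dox-control libraries of TREDT960I-HOM mice without MDAFrtTA, given dox. Each of weeks 6, 12 and 20 of age had 2 induced, 2 no-dox and 1 dox-control library. The labels name quadriceps for 5 libraries and gastrocnemius for 10, with 2 of the 6 induced and 3 of the 9 control libraries from quadriceps. All animals were female except the one behind week 6 no dox replicate 2, per the labels. The labels give neither the promoter that drives MDAFrtTA nor animal numbers, so p-values reflect only how far these libraries spread, which may be partly technical. The percent spliced in (PSI) is a fraction from 0 to 1, and no read depth accompanies it, so no counting interval can be given.

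The files hold no levels of expression, so the tissue could be checked only by which genes had an event in every library. Such an event existed for 8 of 14 skeletal muscle genes and for 10 of 26 markers of other cells. In RNA from whole muscle, fewer cells of a type and less RNA per cell cannot be told apart, and PSI is an average over all cells. Between 1097 and 1201 pairs had a value in each library. Over the 1000 pairs, Pearson's r of any library with another was 0.911 to 0.948, and the most alike libraries had an identical PSI in 14.3% of pairs. PSI differed by at least 0.3 from the median of the other libraries in between 4 and 22 pairs per library. The highest of these counts were 22 in week 12 no dox replicate 2 and 21 in week 12 induced replicate 1.

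The table does not say which exon of a pair its PSI counts, and this was read from the table itself. The exons of 377 pairs of unequal length were also measured one by one, as skipped exons between the same flanking exons. In 144 of these pairs the inclusion of the exons differed by at least 0.2. PSI lay on the side of the longer exon in 144 of 144, whether that exon was upstream or downstream and on either strand. Across the 377 pairs, PSI and the inclusion of the longer minus the shorter exon had a Pearson's r of 0.813 and a Spearman's rho of 0.853. These values describe pairs whose events share reads and libraries. PSI is therefore given below as use of the longer exon for the 921 pairs of unequal length. Of the 79 pairs of equal length, 12 had informative skipped-exon events, which put PSI on the upstream exon in 5 and on the downstream exon in 7. No rule carries over from these to the other pairs of equal length, for which the side could not be read in this way. In Tpm1 (126 and 126 nt), skipped-exon events between other flanks had the upstream exon at 0.0 and the downstream exon at 1.0 in both arms. With a PSI of 1.0, that pair lay on the side of its downstream exon.

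**Figure D1:**
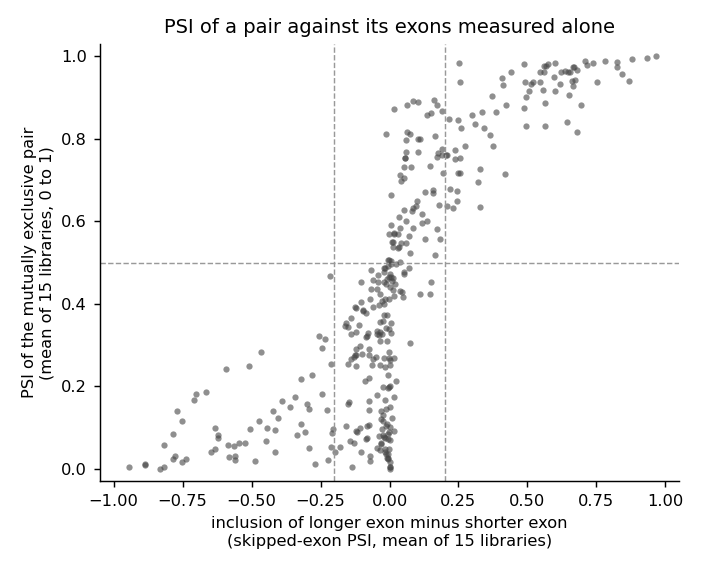
Mean PSI of each of 377 pairs (vertical axis, 0 to 1) against the inclusion of its longer exon minus that of its shorter exon, from skipped-exon events of the same table (horizontal axis). Each point is 1 pair, dashed lines mark differences of 0.2 and a PSI of 0.5, and all 144 pairs beyond the vertical lines lie in the lower left or upper right.

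The 1000 pairs carried the names of 651 genes, 474 with a single pair and 177 with several. As many as 10 pairs came from 2210408F21Rik, and 26 pairs lay where no single gene could be named. The median length was 104 nt for upstream exons and 102 nt for downstream exons, and the median distance between them was 2050 nt. Exchange of the exons would keep the reading frame (lengths equal or differing by a multiple of 3) in 479 pairs, or 47.9%. Both exons were measured elsewhere as skipped exons in 771 pairs. Of these, 114 (14.8%) had both exons included at 0.9 or more, and 91 (11.8%) had both under 0.1. In 20 (2.59%), one exon was at 0.9 or more and its partner under 0.1. The rest had at least 1 exon at an intermediate level. A skipped-exon value sets an exon against its own skipping, so these counts do not measure how many pairs exchange their exons.

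PSI spanned the whole scale. Its mean over libraries was under 0.05 in 82 pairs, over 0.95 in 101 and between 0.4 and 0.6 in 179. It varied by at most 0.1 over the libraries in 264 pairs and by at least 0.5 in 96. In 10 pairs it was identical in every library. These included pairs listed at 0 throughout in Tpm1 (76 and 76 nt), Phka1, Acsl1, Snap23 and Pebp1, and pairs at 1.00 throughout in Tpm1 (126 and 126 nt), Vegfa and Mpc1. The median SD over libraries was 0.0596 for the pairs, beside 0.0439 for all 31267 events.

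Most pairs were near their control level in induced libraries. The fitted difference, induced minus control, was smaller than 0.1 in 940 of 1000 pairs, at least 0.1 in 33 and -0.1 or below in 27. None of the 1000 pairs was called, with calls requiring a limma p under 0.05 after Benjamini-Hochberg adjustment over all 31267 events and a difference of at least 0.1. The lowest adjusted limma p among the pairs was 0.171, in Dnm2. Over all events 2 were called, or 0.0064%. An unadjusted limma p under 0.05 was reached by 80 pairs in 71 genes (8.0%), beside 6.26% of all events. PSI was higher in induced libraries in 52 of these (5.2%, beside 3.06% of all events) and lower in 28 (2.8%, beside 3.2%). Differences of at least 0.1 at such a p were found in 14 pairs with higher PSI (1.4%, beside 0.947% of all events) and in 9 with lower PSI (0.9%, beside 0.937%). The median fitted difference was 0.0 both in the pairs and in all events. A two-sided exact permutation test, which took all 5005 choices of 6 libraries as the induced ones, also gave no adjusted p under 0.05 in any pair. Its unadjusted p was under 0.05 in 62 pairs (6.2%, beside 4.95% of all events), and 0.0002 is the smallest p it can give. Single libraries bore on these counts. Without week 6 induced replicate 1, limma called 3 pairs (Dnm2, Chka and Mef2c), or 0.3%, beside 0.128% of all events. Without week 12 induced replicate 2 it called 2, both in Ptk2, or 0.2%, beside 0.0544%. The 80 pairs became 50 without week 6 induced replicate 2.

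**Figure D2:**
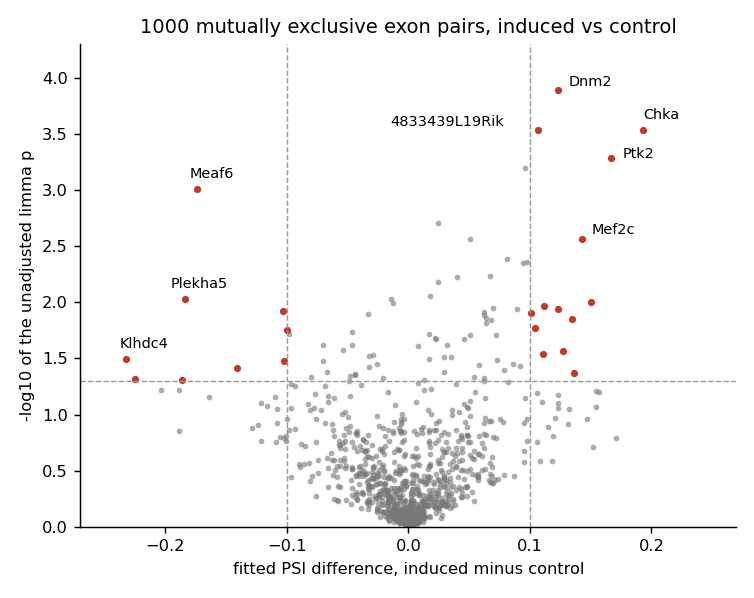
Fitted PSI difference, induced minus control (horizontal axis), against -log10 of the unadjusted limma p (vertical axis) for each of the 1000 pairs. Red points have a size of at least 0.1 at an unadjusted p under 0.05, 14 to the right and 9 to the left; dashed lines mark these limits, and no point was called after adjustment.

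Groups did not overlap in 3 pairs of 2 genes (0.3%, beside 0.125% of all events), with every induced library above every control (as in 0.08% of all events). The means also differed by at least 0.1 in 2 of them (0.2%, beside 0.0832%). The wider difference was in Chka, which encodes choline kinase alpha, the enzyme that starts phosphatidylcholine synthesis. Its exons of 54 nt (chr19:3875735-3875788) and 111 nt (chr19:3882010-3882120) lie on the plus strand of mm10. PSI of the 111-nt exon was 0.26 and 0.49 in induced libraries at week 6, against 0.09 and 0.15 in no-dox libraries and 0.08 in the dox control. It was 0.24 and 0.31 in induced libraries at week 12, against 0.13 and 0.09 without dox and 0.15 in the dox control. It was 0.26 and 0.29 in induced libraries at week 20, against 0.05 and 0.13 without dox and 0.17 in the dox control. The 0.49 of week 6 induced replicate 2 stood well above the other induced libraries, which themselves all lay above the controls. The mean was 0.308 ± 0.092 in induced libraries (SD, n = 6) and 0.116 ± 0.04 in controls (SD, n = 9). Chka had a fitted difference of 0.193 ± 0.036 (SE), with an adjusted limma p of 0.236 and an exact permutation p of 0.0002. The 54-nt exon taken alone, as a skipped exon between the same flanks, was measured partly from the same reads. Its inclusion averaged 0.527 ± 0.142 in induced libraries and 0.713 ± 0.11 in controls, with an adjusted limma p of 0.616.

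The other separated pairs lay in 4833439L19Rik, a protein-coding gene that RefSeq also lists as P33monox. The exons of 107 nt (chr13:54564515-54564621) and 88 nt (chr13:54564185-54564272) lie on the minus strand. PSI of the 107-nt exon ran from 0.34 to 0.43 in induced libraries, with a median of 0.385. In controls it ran from 0.25 to 0.32, with a median of 0.27. The lowest induced library was therefore just above the highest control. This pair had a fitted difference of 0.107 ± 0.02, with an adjusted limma p of 0.236 and an exact permutation p of 0.0002. It was the only pair called when PSI was put on a logit scale (adjusted limma p of 0.0321), or when limma ran without its variance trend and robust moderation (adjusted limma p of 0.0347). The second pair of the gene shares the 88-nt exon and has an upstream exon of 112 nt. Its PSI averaged 0.337 ± 0.039 in induced libraries and 0.241 ± 0.023 in controls. As a skipped exon between the same flanks, the 107-nt exon was included at 0.157 ± 0.038 in induced libraries and 0.086 ± 0.007 in controls (adjusted limma p of 0.146). The 88-nt exon between the same flanks was at 0.217 ± 0.031 in induced libraries and 0.186 ± 0.02 in controls. Between other flanks, the 107-nt exon averaged 0.515 in induced libraries and 0.294 in controls. The 88-nt exon averaged 0.648 and 0.777 there in induced libraries, against 0.436 and 0.642 in controls. Both exons thus had higher mean inclusion in induced libraries.

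In Dnm2, 5 of the 6 induced libraries lay above every control. Dnm2 encodes dynamin 2, a GTPase that pinches vesicles from membranes, and its exons are of equal length (139 nt each, chr9:21478899-21479037 and chr9:21480407-21480545), so the exon counted is not known. PSI was 0.13 and 0.27 in induced libraries at week 6, against 0.13 and 0.11 without dox and 0.07 in the dox control. At week 12 it was 0.25 and 0.27 in induced libraries, against 0.07 and 0.12 without dox and 0.08 in the dox control. At week 20 it was 0.21 and 0.15 in induced libraries, against 0.07 and 0.08 without dox and 0.08 in the dox control. The exception was week 6 induced replicate 1, which equalled the highest control. Dnm2 had a fitted difference of 0.123 ± 0.021, with an adjusted limma p of 0.171 and an exact permutation p of 0.0004. In Dnm1, the paralog best known in neurons, the equal-length pair of 139 nt averaged 0.108 in induced libraries and 0.117 in controls.

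**Figure D3:**
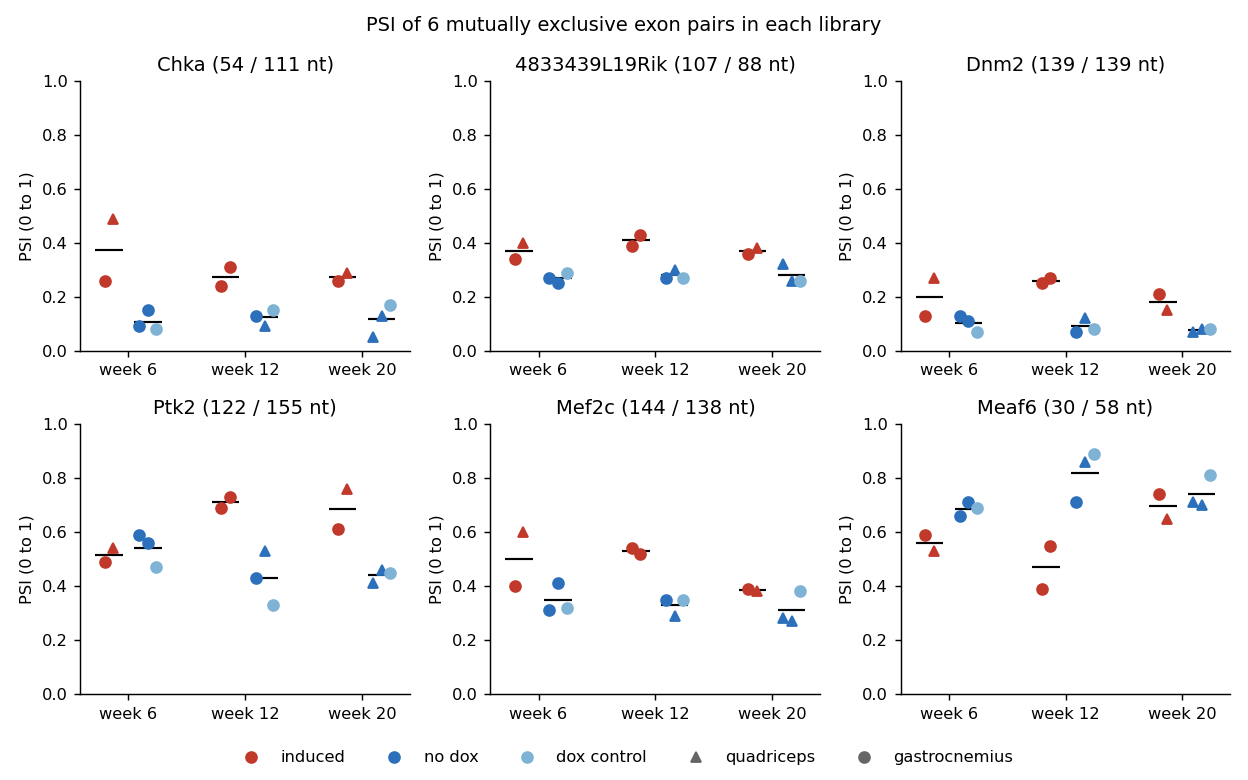
PSI (0 to 1) in each of 15 libraries for 6 pairs, by week, with induced libraries (red) left of no-dox (dark blue) and dox-control libraries (light blue); triangles are quadriceps, circles gastrocnemius, and bars are group means. Chka and 4833439L19Rik show no overlap between induced libraries and controls, while Ptk2 separates at weeks 12 and 20 only and Meaf6 runs the other way.

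The myocyte enhancer factor 2 genes, transcription factors of muscle differentiation, each had 1 pair, and 2 of the 3 leaned towards higher PSI. In Mef2c (144 nt at chr13:83625265-83625408 and 138 nt at chr13:83625470-83625607), PSI of the 144-nt exon ran from 0.38 to 0.6 in induced libraries, with a median of 0.46. In controls it ran from 0.27 to 0.41, with a median of 0.32, so that the groups overlapped and 3 induced libraries stood above all controls. Mef2c had a fitted difference of 0.143 ± 0.036 (adjusted limma p of 0.435, exact permutation p of 0.0016). In Mef2d (138 and 135 nt), PSI of the 138-nt exon averaged 0.272 ± 0.067 in induced libraries and 0.178 ± 0.021 in controls. There, 5 of 6 induced libraries lay above every control, and the fitted difference was 0.094 ± 0.026 (adjusted limma p of 0.5, exact permutation p of 0.0004). In Mef2a (132 and 138 nt), PSI averaged 0.512 ± 0.028 in induced libraries and 0.511 ± 0.029 in controls, a fitted difference of 0.001 ± 0.024. As skipped exons between the same flanks, the Mef2c exons of 144 and 138 nt were included at 0.883 and 0.91 in induced libraries, and at 0.792 and 0.934 in controls.

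Ptk2, which encodes focal adhesion kinase, gave 6 pairs built from 4 exons of 104, 122, 155 and 312 nt, so these pairs are not independent. In the pair of 122 nt (chr15:73391759-73391880) and 155 nt (chr15:73365041-73365195), PSI of the 155-nt exon was 0.49 and 0.54 in induced libraries at week 6. The week 6 controls were at 0.59, 0.56 and 0.47, and so overlapped with them. At week 12 it was 0.69 and 0.73 in induced libraries, against 0.43, 0.53 and 0.33 in controls. At week 20 it was 0.61 and 0.76 in induced libraries, against 0.41, 0.46 and 0.45 in controls. The induced libraries of weeks 12 and 20 thus stood above all 9 controls. Over the weeks, the fitted difference was 0.167 ± 0.033 (adjusted limma p of 0.269, exact permutation p of 0.005). As skipped exons between the same flanks, the exons of 122 and 155 nt averaged 0.093 and 0.182 in induced libraries, and 0.117 and 0.118 in controls. Between other flanks, the 122-nt exon averaged 0.315 in induced libraries and 0.381 in controls. Between the same flanks both exons were thus mostly skipped, and PSI set only the forms holding 1 of them against each other. In the pairs with the 312-nt exon, week 12 induced replicate 1 stood apart. Its PSI was 0.6 for the pair of 104 and 312 nt, 0.46 for 122 and 312 nt and 0.33 for 155 and 312 nt. The other libraries of these pairs lay at or below 0.15, 0.2 and 0.17. The pairs of 104 and 312 nt and of 122 and 312 nt were the Ptk2 pairs called without week 12 induced replicate 2.

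The remaining pairs named as higher in induced libraries overlapped with controls. Tia1, an RNA-binding protein of stress granules, had a PSI of the 119-nt exon from 0.02 to 0.51 in induced libraries and from 0.04 to 0.27 in controls. Its fitted difference was 0.15 ± 0.047 (adjusted limma p of 0.628), and 0.086 without week 20 induced replicate 1. In Tbp, the TATA-box binding protein, PSI of the 49-nt exon averaged 0.835 ± 0.087 in induced libraries and 0.712 ± 0.14 in controls. Actn4, a non-muscle alpha-actinin, averaged 0.148 ± 0.099 in induced libraries and 0.048 ± 0.031 in controls. Its highest library was week 12 induced replicate 1 at 0.32, and its lowest induced library, at 0.07, lay within the controls. Without that highest library the fitted difference of Actn4 was 0.064, beside 0.101 with it. A pair of 859-nt exons in the Ugt1a cluster averaged 0.552 ± 0.165 in induced libraries and 0.417 ± 0.058 in controls. The genes of that cluster are near copies with shared later exons, so the assignment of reads to its pair is uncertain. Gm11149, a non-coding RNA gene whose span overlaps that of Ncam1, averaged 0.892 ± 0.036 in induced libraries and 0.788 ± 0.081 in controls, and its reads cannot be told from those of Ncam1 without stated strand use. Adjusted limma p-values of these last 4 pairs were between 0.651 and 0.684.

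Meaf6 led the pairs of lower PSI. It encodes a subunit of histone acetyltransferase complexes, and its exons of 30 nt (chr4:125107517-125107546) and 58 nt (chr4:125107652-125107709) lie on the plus strand. PSI of the 58-nt exon was 0.59 and 0.53 in induced libraries at week 6, against 0.66, 0.71 and 0.69 in controls. At week 12 it was 0.39 and 0.55 in induced libraries, against 0.71, 0.86 and 0.89 in controls. At week 20 it was 0.74 and 0.65 in induced libraries, against 0.71, 0.7 and 0.81 in controls. All induced libraries but week 20 replicate 1 were below every control, and week 12 showed the widest gap. Meaf6 had a fitted difference of -0.174 ± 0.038 (adjusted limma p of 0.329, exact permutation p of 0.0038).

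Of the other pairs named as lower over the 3 weeks, none had more than 3 induced libraries below all controls. In Klhdc4 (216 and 79 nt), PSI averaged 0.208 ± 0.114 in induced libraries and 0.44 ± 0.195 in controls. The fitted difference was -0.232 ± 0.093, with an adjusted limma p of 0.759. Its controls were split, with means of 0.518 in no-dox and 0.283 in dox-control libraries. The dox controls ran from 0.22 to 0.36, within the induced range of 0.08 to 0.39. A second Klhdc4 pair has the same 79-nt exon and a shorter form of its partner (92 nt), and averaged 0.667 in induced libraries and 0.67 in controls. Plekha5 averaged 0.34 ± 0.047 in induced libraries and 0.524 ± 0.136 in controls (adjusted limma p of 0.613). As single skipped exons between other flanks, its 137-nt and 103-nt exons were at 0.985 and 0.945 in induced libraries and at 0.958 and 0.883 in controls. These values do not measure whether the Plekha5 exons were included together. Rrm2b, a ribonucleotide reductase subunit, averaged 0.778 ± 0.135 in induced libraries and 0.88 ± 0.049 in controls, and its fitted difference of -0.102 was -0.06 without week 6 induced replicate 2. Mphosph9 had a spread as wide as its difference, with 0.428 ± 0.217 in induced libraries and 0.653 ± 0.212 in controls, and its fitted difference of -0.225 was -0.144 without week 20 induced replicate 1. Nkiras1, Traf7, Pkp4, 2810474O19Rik and Snapc3 had fitted differences between -0.204 and -0.1, with adjusted limma p-values between 0.656 and 0.811.

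A list of 50 genes known for mutually exclusive exons had 36 pairs in 27 genes. No pair was called, and an unadjusted limma p under 0.05 was reached by 7 of the 36 with higher and 1 with lower PSI, beside 3.06% higher and 3.2% lower over all events. The 7 were in Dnm2, Mef2c, Mef2d, Neb, Actn4, Camk2d and Tpm3, and the lower one was in Mapk8. The median difference was 0.001 and the median size 0.017, beside 0.0 and 0.013 over all events. Neb, the giant nebulin of the thin filament, had 3 pairs. The pair of 105-nt exons named by the rule ran from 0.07 to 0.28 in induced libraries and from 0.04 to 0.13 in controls, and 5 of 6 induced libraries lay above every control. The other 2 Neb pairs averaged 0.313 and 0.113 in induced libraries, against 0.348 and 0.14 in controls. Nebulin is built of repeats, so reads can be shared between its exons and these values are uncertain. Camk2d, a calcium-dependent kinase, averaged 0.91 ± 0.021 in induced libraries and 0.837 ± 0.074 in controls. Mapk8, the stress kinase JNK1, averaged 0.897 ± 0.01 in induced libraries and 0.922 ± 0.028 in controls.

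Several classic pairs were near 0 or 1 in every library of both arms. Tpm1 and Tpm2, tropomyosins of the thin filament, averaged 1.0 and 0.997 in induced libraries, and 1.0 and 0.996 in controls. Pkm, whose exclusive exons give the M1 and M2 forms of pyruvate kinase, averaged 0.987 ± 0.005 in induced libraries and 0.991 ± 0.006 in controls. Slc25a3, the mitochondrial phosphate carrier, averaged 0.975 ± 0.005 in induced libraries and 0.973 ± 0.009 in controls. Its counted exon is the one of 125 nt. Fgfr1, a growth factor receptor with alternative ligand-binding exons, averaged 0.012 ± 0.008 in induced libraries and 0.019 ± 0.008 in controls. Mapk14, the stress kinase p38 alpha, averaged 0.982 ± 0.012 in induced libraries and 0.984 ± 0.007 in controls. H2afy, a macroH2A histone, averaged 0.033 ± 0.01 in induced libraries and 0.028 ± 0.007 in controls. The adjusted limma p-values of these 7 genes were between 0.885 and 1.

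Other genes of the list had both forms in at least some libraries. Itga7, a laminin receptor of muscle fibres, ran from 0.09 to 0.12 in induced libraries and from 0.05 to 0.18 in controls. Actn1 averaged 0.553 ± 0.094 in induced libraries and 0.481 ± 0.07 in controls, and Fyn, a Src-family kinase, averaged 0.778 ± 0.015 in induced libraries and 0.784 ± 0.063 in controls. P4ha1 and P4ha2, subunits of the collagen prolyl hydroxylase, averaged 0.655 and 0.742 in induced libraries, and 0.617 and 0.679 in controls. The calcium channel gene Cacna1a ran from 0.37 to 0.94 in induced libraries and from 0.25 to 0.9 in controls. Mapk9 and U2af1 averaged 0.925 and 0.887 in induced libraries, and 0.912 and 0.901 in controls. Cask and the Dnm1 pair of 37 and 135 nt averaged 0.122 and 0.057 in induced libraries, and 0.113 and 0.066 in controls.

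**Figure D4:**
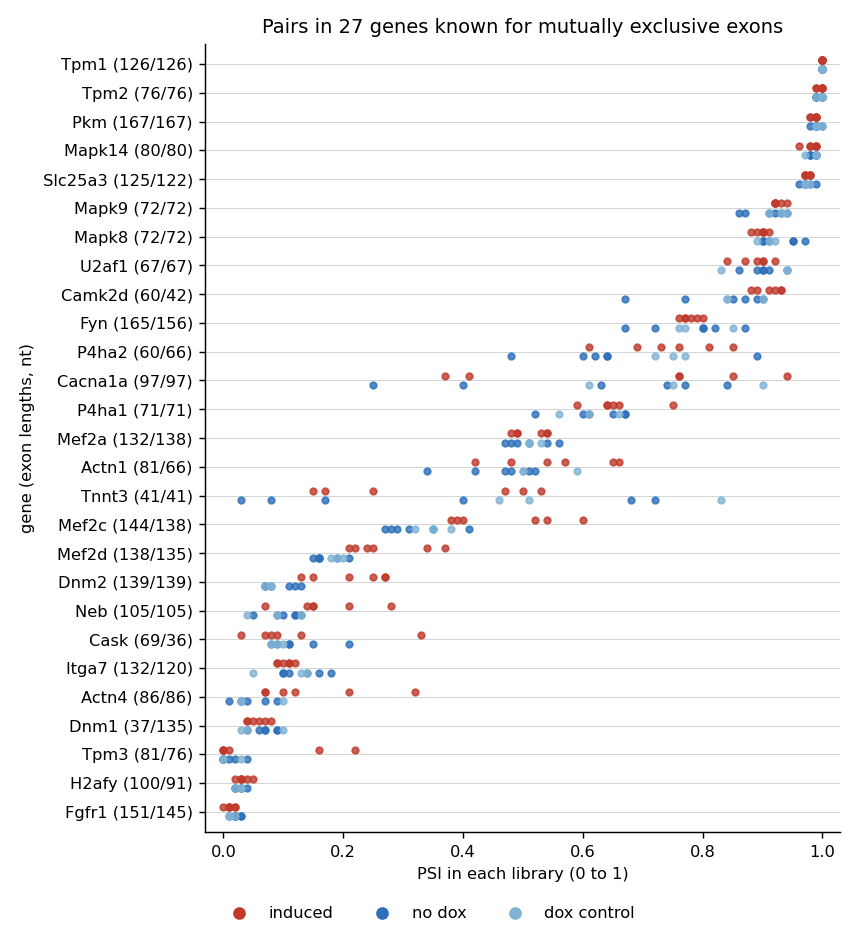
PSI (horizontal axis, 0 to 1) in each library for the pair of smallest limma p in each of 27 genes known for mutually exclusive exons, ordered by mean PSI; induced libraries (red) are drawn above no-dox (dark blue) and dox-control libraries (light blue). Tpm1, Tpm2, Pkm, Mapk14 and Slc25a3 lie near 1 and Fgfr1 and H2afy near 0 in all libraries, and the arms overlap in every gene.

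In other lists the counts were small, and no pair was called; over all events, 3.06% had an unadjusted limma p under 0.05 with higher and 3.2% with lower PSI. Among 57 genes tied to MBNL proteins or myotonic dystrophy, 24 had 32 pairs, of which 6 had an unadjusted limma p under 0.05 with higher PSI and 1 with lower PSI. Their median difference was 0.0 and the median size 0.032. Beside genes already named, these were Pdlim7, a Z-disc protein at 0.047 in induced libraries and 0.022 in controls, and Sorbs2 at 0.915 in induced libraries and 0.959 in controls. Sarcomere and Z-disc genes had 15 pairs, with 3 higher (Pdlim7, Neb and Tpm3) and 0 lower. The 14 genes of skeletal muscle identity had 5 pairs in 3 genes, with 1 higher, in Neb, and 0 lower. Genes of endocytosis and vesicle traffic had 13 pairs, with 3 higher (Dnm2, Clta and Stx5a) and 0 lower. Splicing factors and other RNA-binding genes had 11 pairs, with 1 higher, in Tia1, and 0 lower. The RNA-binding genes included Rbfox1 at 0.978 in both arms and Celf1 at 0.88 in induced libraries and 0.844 in controls. Mitochondrial and energy genes had 11 pairs and none at an unadjusted limma p under 0.05 in either direction, with a median size of 0.002. Markers of other cell types had 1 pair, in Mbp, at 0.135 in induced libraries and 0.146 in controls.

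By week, no pair was called at week 6, 12 or 20, while 0.0032%, 0% and 0.0032% of all events were. Unadjusted limma p-values under 0.05 were found for 45 pairs at week 6 (4.5%, beside 4.17% of all events). They were found for 88 at week 12 (8.8%, beside 6.04%) and for 44 at week 20 (4.4%, beside 5.01%). A moderated F test of whether the induced difference varied between weeks called no pair (0.0032% of all events were called), with a lowest adjusted limma p of 0.992. Its unadjusted p was under 0.05 in 40 pairs (4.0%, beside 4.14%). With 2 induced libraries a week, each weekly value rests on few measurements.

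At week 6 the leading pair was in Cops7b, a subunit of the COP9 signalosome. PSI of its 89-nt exon was 0.71 and 0.64 in induced libraries, against 0.41, 0.48 and 0.45 in controls. The fitted difference was 0.245 ± 0.048 with an adjusted limma p of 0.558. At later weeks its controls were between 0.59 and 0.7 and overlapped with the induced libraries. Stx5a, a fusion protein of the Golgi, was at 0.96 and 0.89 in week 6 induced libraries, against 0.8, 0.8 and 0.83 in controls. Paip2, an inhibitor of the poly-A binding protein, ran lower, at 0.2 and 0.29 in week 6 induced libraries, against 0.38, 0.56 and 0.56 in controls. Dctn6 was at 0.28 and 0.25 in week 6 induced libraries, against 0.4, 0.43 and 0.44 in controls. Cdc14b was at 0.55 and 0.46 in those induced libraries, against 0.64, 0.69 and 0.72 in controls. As skipped exons between the same flanks, the Paip2 exons averaged 0.0 in induced libraries and 0.0 and 0.001 in controls. The Dctn6 exons averaged 0.065 and 0.037 in induced libraries and 0.048 and 0.033 in controls. PSI of Paip2 and Dctn6 thus described a choice within rare forms.

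At week 12 Meaf6 and Ptk2 led, as above, with fitted differences of -0.365 ± 0.067 and 0.307 ± 0.06 and adjusted limma p-values of 0.378 and 0.392. Nprl3, part of a complex that restrains mTORC1, was at 0.28 and 0.34 in week 12 induced libraries, against 0.15, 0.19 and 0.13 in controls. Hacl1, a peroxisomal enzyme of fatty acid alpha-oxidation, was at 0.08 and 0.12 in week 12 induced libraries, against 0.5, 0.37 and 0.32 in controls. At week 6 its direction was the opposite, with 0.21 and 0.29 in induced libraries, against 0.11, 0.15 and 0.08 in controls. At week 20 the Hacl1 groups overlapped, with 0.18 and 0.22 in induced libraries, against 0.28, 0.24 and 0.08 in controls. Nkiras1 was at 0.71 and 0.63 in week 12 induced libraries, against 0.93, 0.84 and 0.86 in controls. At week 20 the non-coding RNA gene Gm15787 had the smallest p, at 0.41 and 0.59 in induced libraries, against 0.33, 0.23 and 0.16 in controls (fitted difference 0.286 ± 0.047, adjusted limma p of 0.506). Tbp was at 0.81 and 0.92 in week 20 induced libraries, against 0.5, 0.76 and 0.45 in controls. Dclk2, Tmem141 and Nfyc had fitted week 20 differences of -0.265 ± 0.066, -0.318 ± 0.091 and -0.161 ± 0.05, with adjusted limma p-values between 0.694 and 0.864. Tmem141 was at 0.47 and 0.12 in week 20 induced libraries, against 0.6, 0.61 and 0.55 in controls, and its difference was -0.185 without week 20 induced replicate 2.

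Set against no-dox libraries alone, which share the genotype of the induced ones, no pair was called and 0% of all events were. An unadjusted limma p under 0.05 was found for 72 pairs (7.2%, beside 6.02% of all events). The fitted difference was 0.212 in Chka, 0.118 in Dnm2, 0.154 in Mef2c and -0.147 in Meaf6. The 6 induced libraries are those of the comparison above, so these values are not independent of it. Between dox-control and no-dox libraries no pair was called either (0% of all events), and 41 pairs had an unadjusted limma p under 0.05 (4.1%, beside 3.58%). Dox and the absence of MDAFrtTA cannot be told apart in that comparison. Irf1, an interferon regulatory factor, was at 0.63, 0.63 and 0.67 in dox controls, against 0.46 to 0.56 in no-dox libraries, and the induced libraries, also given dox, were at 0.5 to 0.53. Mtmr1, a phosphoinositide phosphatase, was at 0.32, 0.32 and 0.45 in dox controls, against 0.08 to 0.39 in no-dox libraries. Tead1, a transcription factor of muscle gene promoters, was at 0.42, 0.51 and 0.3 in dox controls, against 0.51 to 0.74 in no-dox libraries. Cadm1 and Gtpbp10 were lower in dox controls, by -0.174 ± 0.059 and -0.107 ± 0.032. A pair of 134-nt exons on chr4 was at 0.98, 0.98 and 0.96 in dox controls, against 0.36 to 0.95 in no-dox libraries. Its exons lie in Mup10 and Mup11, near-identical urinary protein genes, so it may not be a pair of 1 transcript and its reads are uncertain. Adjusted limma p-values of these 6 pairs were 1.

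The muscle of origin was compared with arm and week in the fit. No pair was called between quadriceps and gastrocnemius (0.0032% of all events were), the lowest adjusted limma p being 0.389. An unadjusted limma p under 0.05 was found for 75 pairs (7.5%, beside 7.54% of all events). The muscles did not overlap in 3 pairs, in Tnnt3, Bnc2 and Col11a2 (0.3%, beside 0.138% of all events). In Tnnt3, fast skeletal troponin T of the thin filament, both exons are 41 nt long (chr7:142513665-142513705 and chr7:142514326-142514366). PSI was 0.15, 0.17, 0.17, 0.08 and 0.03 in the 5 quadriceps libraries. In the 10 gastrocnemius libraries it ran from 0.25 to 0.83, with a median of 0.505. Every quadriceps library thus lay below every gastrocnemius library in both arms. Tnnt3 had a fitted difference of -0.488 ± 0.092, with an adjusted limma p of 0.428. Between arms, Tnnt3 averaged 0.345 ± 0.174 in induced libraries and 0.431 ± 0.288 in controls, and in each arm the quadriceps libraries were the lowest.

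**Figure D5:**
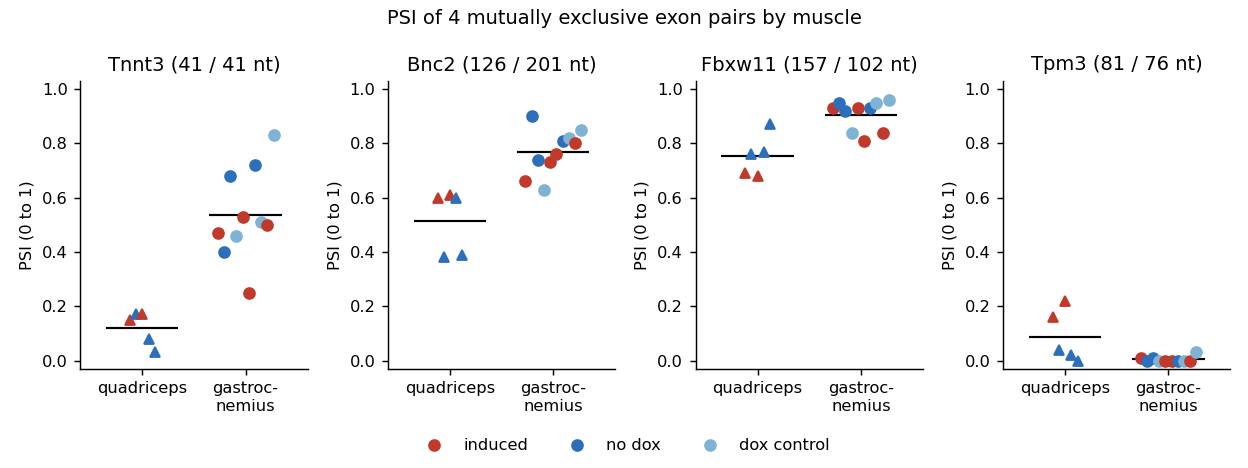
PSI (0 to 1) by muscle for 4 pairs, quadriceps (5 libraries, triangles) left of gastrocnemius (10 libraries, circles), coloured by arm, with group means as bars. Tnnt3 and Bnc2 do not overlap between muscles, and the raised Tpm3 values are 2 induced quadriceps libraries.

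In Bnc2, a zinc-finger gene, PSI of the 201-nt exon ran from 0.38 to 0.61 in quadriceps and from 0.63 to 0.9 in gastrocnemius, with medians of 0.6 and 0.78. Bnc2 had a fitted difference of -0.279 ± 0.071 (adjusted limma p of 0.559). In Fbxw11, a substrate receptor of a ubiquitin ligase, PSI of the 157-nt exon ran from 0.68 to 0.87 in quadriceps, with a median of 0.76. In gastrocnemius it ran from 0.81 to 0.96, with a median of 0.93, so that the muscles overlapped slightly. Fbxw11 had a fitted difference of -0.177 ± 0.033 (adjusted limma p of 0.395). Tcf7l2 and Bmpr1b, of Wnt and BMP signalling, had fitted differences of -0.224 ± 0.07 and -0.143 ± 0.046. Pairs higher in quadriceps were led by Gm15787 (0.156 ± 0.033), the Tmcc1 pair (0.208 ± 0.05) and Enah, an actin regulator (0.309 ± 0.076). The Klhdc4 pair of 92 and 79 nt followed, at 0.216 ± 0.064 (adjusted limma p of 0.59). Enah ran from 0.37 to 0.7 in quadriceps and from 0.11 to 0.54 in gastrocnemius. Aqp4, the water channel of fast fibres, ran from 0.27 to 0.46 in quadriceps and from 0.08 to 0.33 in gastrocnemius. In Enah, Aqp4 and Tmcc1 the skipped-exon inclusion of either exon between the same flanks averaged under 0.1 in both muscles, so that PSI described a choice within rare forms. Adjusted limma p-values of the Tcf7l2, Bmpr1b, Gm15787, Tmcc1, Enah and Aqp4 pairs were between 0.512 and 0.612.

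Tpm3, the tropomyosin of slow fibres, joined muscle and arm. In its pair of 81 and 76 nt, PSI of the 81-nt exon was 0.16 and 0.22 in the induced quadriceps libraries of weeks 6 and 20. It was at or below 0.01 in the 4 induced gastrocnemius libraries and at or below 0.04 in all 9 controls. A second Tpm3 pair of 76-nt exons, chosen after its values were seen, was at 0.4 and 0.61 in the same induced quadriceps libraries, at or below 0.02 in induced gastrocnemius libraries and at or below 0.12 in controls. The fitted induced difference of the pair of 81 and 76 nt was 0.054 ± 0.024 (adjusted limma p of 0.794), and -0.004 within gastrocnemius alone. There were only 2 induced quadriceps libraries, of different weeks, and arm, muscle and library were not tested apart for this gene.

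Age was compared in controls, between weeks 20 and 6. No pair was called and 0% of all events were, with a lowest adjusted limma p of 0.658. An unadjusted limma p under 0.05 was found for 51 pairs (5.1%, beside 5.32% of all events). In Abl1, a tyrosine kinase gene, PSI was 0.67, 0.64 and 0.58 in week 20 controls, against 0.35, 0.2 and 0.32 in week 6 controls, with a fitted difference of 0.3 ± 0.067. In Dtnb, a dystrobrevin, it was 0.21, 0.16 and 0.23 in week 20 controls, against 0.06, 0.1 and 0.14 in week 6 controls. Cops7b was at 0.59, 0.63 and 0.65 in week 20 controls, against 0.41, 0.48 and 0.45 in week 6 controls. Paip2 was at 0.21, 0.37 and 0.2 in week 20 controls, against 0.38, 0.56 and 0.56 in week 6 controls. The week 20 and week 6 controls did not overlap in these 4 pairs, as in 90 of the 1000 pairs (9%) and in 8.5% of all events. As skipped exons between the same flanks, the Abl1 exons averaged 0.089 and 0.044 over all controls, the Paip2 exons 0.0 and 0.001. PSI of Abl1 and Paip2 thus described a choice within rare forms. Stx5a and Pgap2 had fitted differences of 0.121 ± 0.029 and 0.191 ± 0.052, while Tbp, 2210408F21Rik, Septin4 and Cadm1 had differences between -0.296 and -0.153. The Septin4 difference of -0.208 was -0.088 without the week 20 dox control. Of the 3 week 20 controls, 2 came from quadriceps, while those of week 6 were from gastrocnemius, and the fit held a term for muscle. Cops7b, Stx5a and Paip2 were also among the pairs named at week 6 between arms, and that comparison shares the week 6 controls with this one. Tbp was also named between arms, at week 20 and over the weeks, and those comparisons share its week 20 controls (0.5, 0.76 and 0.45). At week 6 Tbp was at 0.69 and 0.8 in induced libraries, against 0.84, 0.75 and 0.78 in controls.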

How the data were processed

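Poly-A RNA was read in pairs of 100 nt, per the labels' protocols. TopHat and mm10 are named by the submitters' processing notes, and MISO by the title of the deposited table. Their versions and any read minimum are not given in the sources used. The deposited values are fractions from 0 to 1 with 2 decimals, per the file headers, in 1 column per library, and depth is unknown. Columns were matched by the library identifier in each title; the columns number the week 6 induced pair the other way round, and titles were followed. The table holds 0 columns of other samples. Gene names are the deposited symbols if placed at the event (898 pairs) or from RefSeq for GRCm38.p6 (74 pairs). Coordinates are those of the event names, counted from 1.

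Differences were fitted with limma 3.58.1 in R 4.3.3 (variance trend, robust moderation) on PSI of all 31267 complete events, with a mean for each week and arm plus muscle, or condition, week and muscle where dox control and no dox were compared. The induced difference is the mean of 3 weekly ones. Tests are two-sided, and the fit was tested on simulated data. Genes were named by rule: in each direction, up to 10 pairs (1 per gene) without overlap and then of smallest p at a difference of at least 0.1, up to 5 for muscle and age, up to 3 for each week and for dox, and the pair of smallest p in each gene known for mutually exclusive exons. Members, lists and tests were chosen with earlier results of these data known. The reading of PSI from skipped exons, the counts of groups without overlap and a fit on no-dox controls alone were added after the files were seen. Logit scale, a filter on mean PSI, no muscle term, plain moderation, single muscles, single libraries left out and a replicate block were the alternatives. Sequences of the exons are not used here.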

Additional observations from a re-analysis of the deposited data

Results flagged for a closer look

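Single libraries stood apart in 9 of 88 groups of induced or control values of the named pairs, by the gap to the nearest library relative to the range. Chance flags about 1 in 20 such groups. In induced libraries these were Chka at 0.49 in week 6 replicate 2 (nearest 0.31), Cask at 0.33 in week 6 replicate 2 (nearest 0.13), Mphosph9 at 0.84 in week 20 replicate 2 (nearest 0.42) and Mapk14 at 0.96 in week 20 replicate 2 (nearest 0.98). In controls, 3 came from week 12 no dox replicate 2, with Tia1 at 0.27 (nearest 0.14), Pkm at 0.98 (nearest 0.99) and H2afy at 0.04 (nearest 0.03). The others were Nkiras1 at 0.7 in week 6 no dox replicate 2, the male library (nearest 0.84), and Mapk14 at 0.97 in the week 6 dox control (nearest 0.98). The Pkm, H2afy and Mapk14 gaps are 1 or 2 steps of the second decimal, at which PSI was deposited. Of the 9 values, 7 came from quadriceps libraries, which are 5 of the 15. The part of muscle in these gaps was not tested.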

How the results depend on the processing

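No pair was called in any comparison under the fits as designed, and this held under every alternative but the following. On the logit scale 1 pair was called between induced libraries and controls, and without the variance trend and robust moderation also 1, both times 4833439L19Rik (0.1% of pairs each time, beside 0.0288% and 0.0128% of all events). Leaving out 1 library at a time gave 0 to 3 called pairs. They were 3 without week 6 induced replicate 1, namely Dnm2 (0.147, adjusted limma p of 0.0109), Chka (0.238, 0.00832) and Mef2c (0.187, 0.0436), and 2 without week 12 induced replicate 2, both in Ptk2, beside 0.128% and 0.0544% of all events. Leave-one-out counts ran from 0 to 1 at week 6, the 1 being Chka at 0.422 (adjusted limma p of 0.0431), from 0 to 4 at week 12 (2 Ptk2 pairs, Ndufv2 and Ppp4r1l-ps) and from 0 to 2 for the variation between weeks (Ptk2 and Ndufv2). The shares of pairs were 0.1%, 0.4% and 0.2%, beside 0.125%, 0.413% and 0.0991% of all events. In each call with 1 library left out, the week concerned kept a single induced library, assumed to vary like the others. That library was week 6 replicate 2, whose Chka value of 0.49 stood apart, or week 12 replicate 1. Calls over the 3 weeks and for the variation between weeks also drew on the induced libraries of the other weeks. Without week 6 induced replicate 2 instead, the week 6 difference of Chka was 0.153. Pairs at an unadjusted limma p under 0.05 numbered 80, and 50 to 98 when 1 library was left out, with 50 without week 6 induced replicate 2 and 98 without week 12 induced replicate 2. The 71 named differences gave 1473 values under the alternatives, of which 1464 kept direction and side of the threshold, 6 came past it (all named above) and 3 changed direction: Mphosph9 in quadriceps alone (0.013), Tpm3 in gastrocnemius alone (-0.004) and Tnnt3 between arms in quadriceps alone (0.067). Deviations of same-numbered libraries correlated at 0.01, -0.012 and 0.015 at weeks 6, 12 and 20. Each value compares a single difference per arm, and the labels give no animal numbers, so whether the libraries were paired is not known. With the replicate number as a block, 0 pairs were called and 67 had an unadjusted limma p under 0.05. The cause of these shifts was not tested. Depth behind each PSI is unknown, so a pair read from few reads weighed as much as one read from many, and small differences may not be detectable with 6 induced libraries.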
